A study of Mus musculus with 4 samples.

Results

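The caveolin and cavin genes were described by the state of the CCGG sites in and around them in mouse heart. All 7 genes of the family in the mouse table were included: the caveolins Cav1, Cav2 and Cav3 and the cavins Cavin1, Cavin2, Cavin3 and Cavin4. Each was represented by the CCGG sites that were listed in all 4 samples within its span on mm10, extended by 2 kb on either side. This gave 83 of the 996020 sites listed in all 4 samples, with 6 to 23 sites per gene, and left out 6 sites that were missing from at least 1 sample. The family was grouped by name and function, but with earlier results of these data known, among them a lower HpaII to MspI ratio in the body of Cavin1 in infarcted tissue of both genotypes. The values are therefore described, and none is tested.

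The 4 groups held 1 sample each and consisted of left ventricle from C57BL/6 mice aged 8 weeks, taken 3 days after an induced myocardial infarction. They were Neil3-/- infarcted, wild-type infarcted, Neil3-/- non-infarcted and wild-type non-infarcted tissue. Neil3 encodes a DNA glycosylase that removes oxidized bases. All 4 groups had undergone the operation, so the non-infarcted tissue is not that of unoperated mice. The sources used here do not give the type of the Neil3 allele, any pooling of animals, or whether infarcted and non-infarcted tissue came from the same hearts. With 1 sample per group, no difference below has a replicate check.

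Caveolae are small flask-shaped pits of the plasma membrane. Caveolins are membrane proteins that oligomerize to shape the pit, and cavins are cytoplasmic proteins that assemble as a coat around it. In the heart, Cav1 and Cav2 are known mainly from endothelial cells, fibroblasts and smooth muscle, whereas Cav3 and Cavin4 are the forms of striated muscle. Caveolae are known for mechanical buffering of the membrane, for lipid handling and for holding signalling proteins such as endothelial nitric oxide synthase.

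The assay reads short tags next to CCGG sites from 3 libraries of each sample. HpaII cuts CCGG when it is unmodified. MspI cuts CCGG whether or not the inner cytosine is methylated. MspI after glucosylation, here called BGT as in the files, is blocked where the cytosine carries a hydroxymethyl group. HpaII signal divided by MspI signal, in percent (HpaII/MspI), is thus higher where more sites are unmodified, and BGT signal divided by MspI signal (BGT/MspI) is lower where more sites are hydroxymethylated. Both were taken from sums of the deposited normalized signal over the sites of a gene. Because the authors' libraries have nearly the same total within a sample, both percentages are relative and can exceed 100%; they are not shares of DNA molecules.

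The upstream sequences of the family show which CCGG motifs could be read there. RefSeq sequences on GRCm38.p6, the assembly of mm10, were found for 6 of the 7 genes, all but Cavin3, and 5 of the 6 held at least 1 CCGG in the 250 bases before the start. The motif CCGG reads the same on both strands. It was present in 56.6% of the same stretch of 16456 protein-coding genes. The 5 sequences are shown 5′ to 3′ with CCGG in capitals, because the listed sites in them are described one by one.

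Cav1 upstream, chr6:17306085-17306334, plus strand: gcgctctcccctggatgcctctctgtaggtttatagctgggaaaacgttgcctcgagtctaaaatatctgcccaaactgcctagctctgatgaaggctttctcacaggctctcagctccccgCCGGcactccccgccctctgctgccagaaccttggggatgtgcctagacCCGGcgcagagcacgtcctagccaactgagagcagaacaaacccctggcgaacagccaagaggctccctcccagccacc

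Cav2 upstream, chr6:17280935-17281184, plus strand: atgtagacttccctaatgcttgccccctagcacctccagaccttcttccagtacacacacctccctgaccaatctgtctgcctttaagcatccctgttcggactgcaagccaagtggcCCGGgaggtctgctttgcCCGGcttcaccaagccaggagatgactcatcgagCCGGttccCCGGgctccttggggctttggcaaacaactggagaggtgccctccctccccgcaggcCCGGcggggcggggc

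Cav3 upstream, chr6:112459255-112459504, plus strand: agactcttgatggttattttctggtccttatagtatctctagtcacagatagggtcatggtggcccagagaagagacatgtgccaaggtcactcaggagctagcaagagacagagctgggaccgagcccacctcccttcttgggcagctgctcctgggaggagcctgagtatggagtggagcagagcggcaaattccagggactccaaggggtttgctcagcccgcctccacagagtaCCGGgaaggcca

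Cavin1 upstream, chr11:100970618-100970867, minus strand: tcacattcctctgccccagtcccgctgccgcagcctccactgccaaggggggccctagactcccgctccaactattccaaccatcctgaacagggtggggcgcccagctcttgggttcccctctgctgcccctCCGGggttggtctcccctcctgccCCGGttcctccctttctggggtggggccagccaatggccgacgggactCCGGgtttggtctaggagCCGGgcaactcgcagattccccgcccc

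Cavin4 upstream, chr4:48663264-48663513, plus strand: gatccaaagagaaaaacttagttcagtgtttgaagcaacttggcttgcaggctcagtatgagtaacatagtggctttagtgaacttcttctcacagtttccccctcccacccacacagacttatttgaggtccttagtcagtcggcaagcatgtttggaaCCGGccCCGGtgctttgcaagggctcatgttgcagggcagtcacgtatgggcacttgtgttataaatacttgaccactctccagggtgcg

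Of the 14 CCGG motifs in these stretches, 5 were listed in all 4 samples, 1 per gene. They lay 79 bases before the start in Cav1, 132 in Cav2, 12 in Cav3, 117 in Cavin1 and 84 in Cavin4. Cav2 held 5 motifs, a number reached or exceeded by 5.97% of genes, and Cavin1 held 4. The upstream stretch of Cavin2 held no CCGG and 2 CpG dinucleotides, against 4 in Cav3, 5 in Cavin4, 10 in Cav1, 10 in Cav2 and 12 in Cavin1. The median over all genes was 10.

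Across the series, the files listed 1060295 to 1079784 sites per sample. Total signal per library ranged from 34161766 to 43985354. How many tags each value rests on is not known. Over all 16883 protein-coding autosomal genes with at least 5 sites, the median HpaII/MspI was 119% in Neil3-/- infarcted, 119% in wild-type infarcted, 117% in Neil3-/- non-infarcted and 114% in wild-type non-infarcted tissue. The median BGT/MspI was 101% to 104%. One BGT library differed from the others, that of wild-type non-infarcted tissue: across sites its log2 signal correlated with MspI of the same sample at 0.534, against 0.698 to 0.725 in the other samples. Sites share a library and are not replicates.

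The levels of HpaII/MspI separated the family into genes well above the median gene and genes near or below it. Cavin3, whose product binds protein kinase C delta, had the highest level, at 359% in Neil3-/- infarcted, 316% in wild-type infarcted, 253% in Neil3-/- non-infarcted and 329% in wild-type non-infarcted tissue. Cav2, the partner that forms mixed oligomers with Cav1, had 237%, 275%, 252% and 228% in the same order of samples. Cavin3 lay above Cav2 within each of the 4 samples, by the least in Neil3-/- non-infarcted tissue, but the ranges over samples overlapped. Each of the 4 samples placed both genes above the 95th percentile of all genes (97.3 to 99.5 for Cavin3 and 95.2 to 97.6 for Cav2).

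Cavin1, the cavin that caveolae need in order to form, followed with 197% in Neil3-/- infarcted, 187% in wild-type infarcted, 216% in Neil3-/- non-infarcted and 196% in wild-type non-infarcted tissue. Cav1, the main caveolin outside muscle, had 182%, 168%, 197% and 199%. The ranges of Cavin1 and Cav1 overlapped each other and lay wholly below that of Cav2. No value of Cav1 fell below the 81.1th percentile of all genes.

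The remaining genes lay between 80.5% and 115%, with no overlap with Cav1. Cavin2, a cavin that binds phosphatidylserine, had 109.5% in Neil3-/- infarcted, 113% in wild-type infarcted, 115% in Neil3-/- non-infarcted and 102% in wild-type non-infarcted tissue. Cav3, the muscle caveolin, had 103%, 101%, 101% and 114%. Cavin4, the muscle cavin, had 106%, 80.5%, 108% and 104%. The ranges of these genes overlapped, and their order did not hold beyond the spread over samples. Thus the genes of striated muscle, Cav3 and Cavin4, stood in the lower group together with Cavin2.

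**Figure D1:**
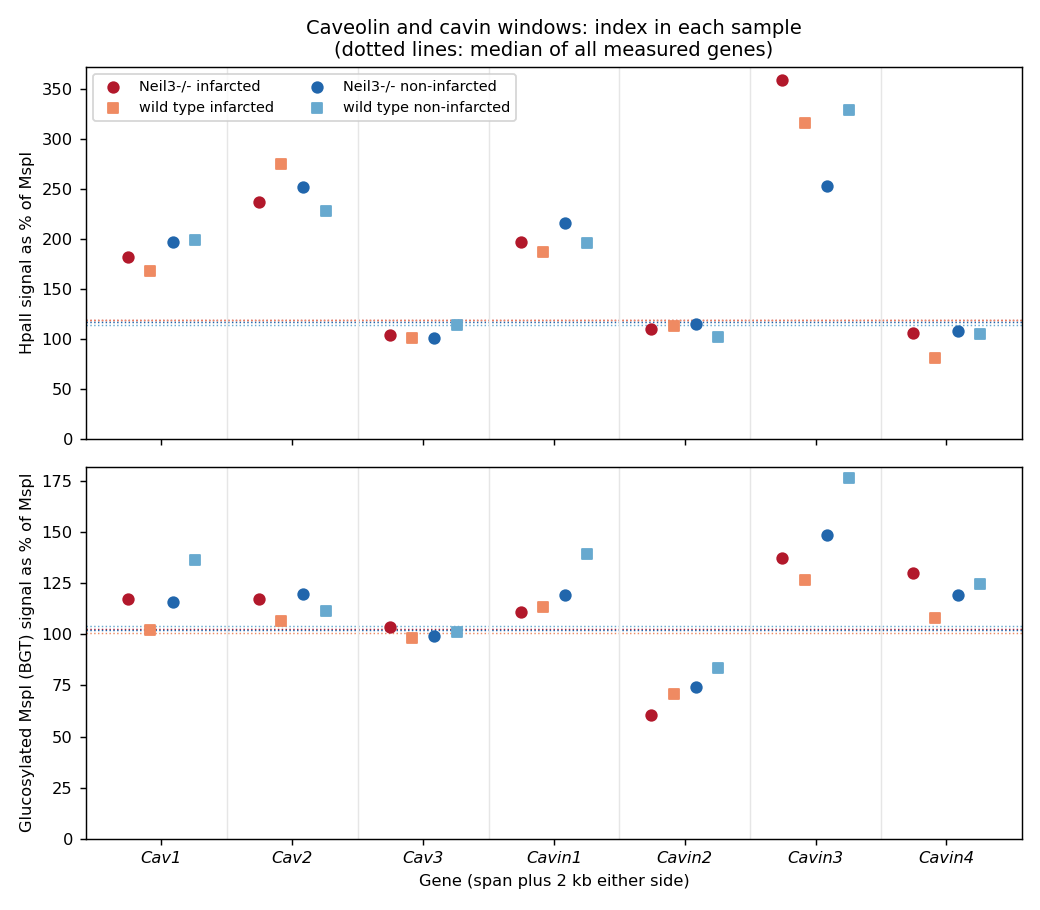
HpaII/MspI (top) and BGT/MspI (bottom) of the 7 gene windows in percent, 1 point per sample, with dotted lines at the median of all measured genes in each sample. Cavin3, Cav2, Cavin1 and Cav1 lie above 160% in HpaII/MspI in all samples, and Cavin2 is the gene below 90% in BGT/MspI in all samples.

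Counted by site, 48 of the 83 sites had an HpaII/MspI above 100% in all 4 samples and 15 had one below 100% in all 4. Of all autosomal sites, 38.1% were above in all 4 and 38.9% below. Cavin1 had 18 of 23 sites above 100% in all samples and 1 below. Cavin3 had 5 of 6 above, Cav2 6 of 7 and Cav1 8 of 15. Cav3 had 4 of 13 above and 4 below, and Cavin4 had 4 of 13 above and 5 below.

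Within the genes, the sites within 1 kb of the start were compared with the rest of the window. Over 10892 genes with at least 2 sites near the start and 3 elsewhere, HpaII/MspI was higher near the start in 89.5% to 90.01% of genes, depending on the sample. Cav3 showed the widest contrast of the family. Its 2 sites near the start had 338% in Neil3-/- infarcted, 374% in wild-type infarcted, 316% in Neil3-/- non-infarcted and 447% in wild-type non-infarcted tissue, and its other 11 sites had 78.9%, 75.9%, 79.3% and 85.9%. Near-start sites of Cav2 had 297% to 360.5% and its other sites 99.3% to 152%. In Cav1 the values were 217% to 274% near the start and 129% to 148% elsewhere. Cavin2 had 116% to 139.8% near the start and 85.3% to 104% elsewhere.

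Cavin4 and Cavin1 differed from this pattern. The 4 near-start sites of Cavin4 had 72.3% in Neil3-/- infarcted, 49.8% in wild-type infarcted, 78.8% in Neil3-/- non-infarcted and 75.7% in wild-type non-infarcted tissue, below the 135%, 109%, 131% and 128% of its other 9 sites in the same samples. The site 84 bases before the start of Cavin4, shown above as the second CCGG of its sequence, had 26.2%, 28.4%, 32.3% and 44.7%. By contrast, the site 12 bases before the start of Cav3 had 496%, 518%, 425% and 430%, and the site 117 bases before that of Cavin1 had 683%, 479%, 740.4% and 713%. In Cavin1 the near-start sites together had 178%, 193%, 170.3% and 181%, which was below its other 19 sites in 3 samples (202%, 229% and 200.1% in Neil3-/- infarcted, Neil3-/- non-infarcted and wild-type non-infarcted tissue) and above them in wild-type infarcted tissue (185%). Sites near the start of Cavin1 thus stood above the rest of its window in wild-type infarcted tissue alone. Next to the start of Cav2, 56 bases past it, a site had 384% in Neil3-/- infarcted, 538% in wild-type infarcted, 498% in Neil3-/- non-infarcted and 388% in wild-type non-infarcted tissue, and the site 79 bases before the start of Cav1 had 240.01%, 229%, 367% and 258%. The mean MspI signal per site also differed by region. It was 53.2 to 62.2 near the start of Cavin4 and 25.8 to 33.2 elsewhere, and in Cav3 23.4 to 33.7 and 46.9 to 60.0. In Cav1 and Cavin2, whose HpaII/MspI was higher near the start, MspI signal was higher there too. The part of MspI signal in these contrasts was not tested.

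**Figure D2:**
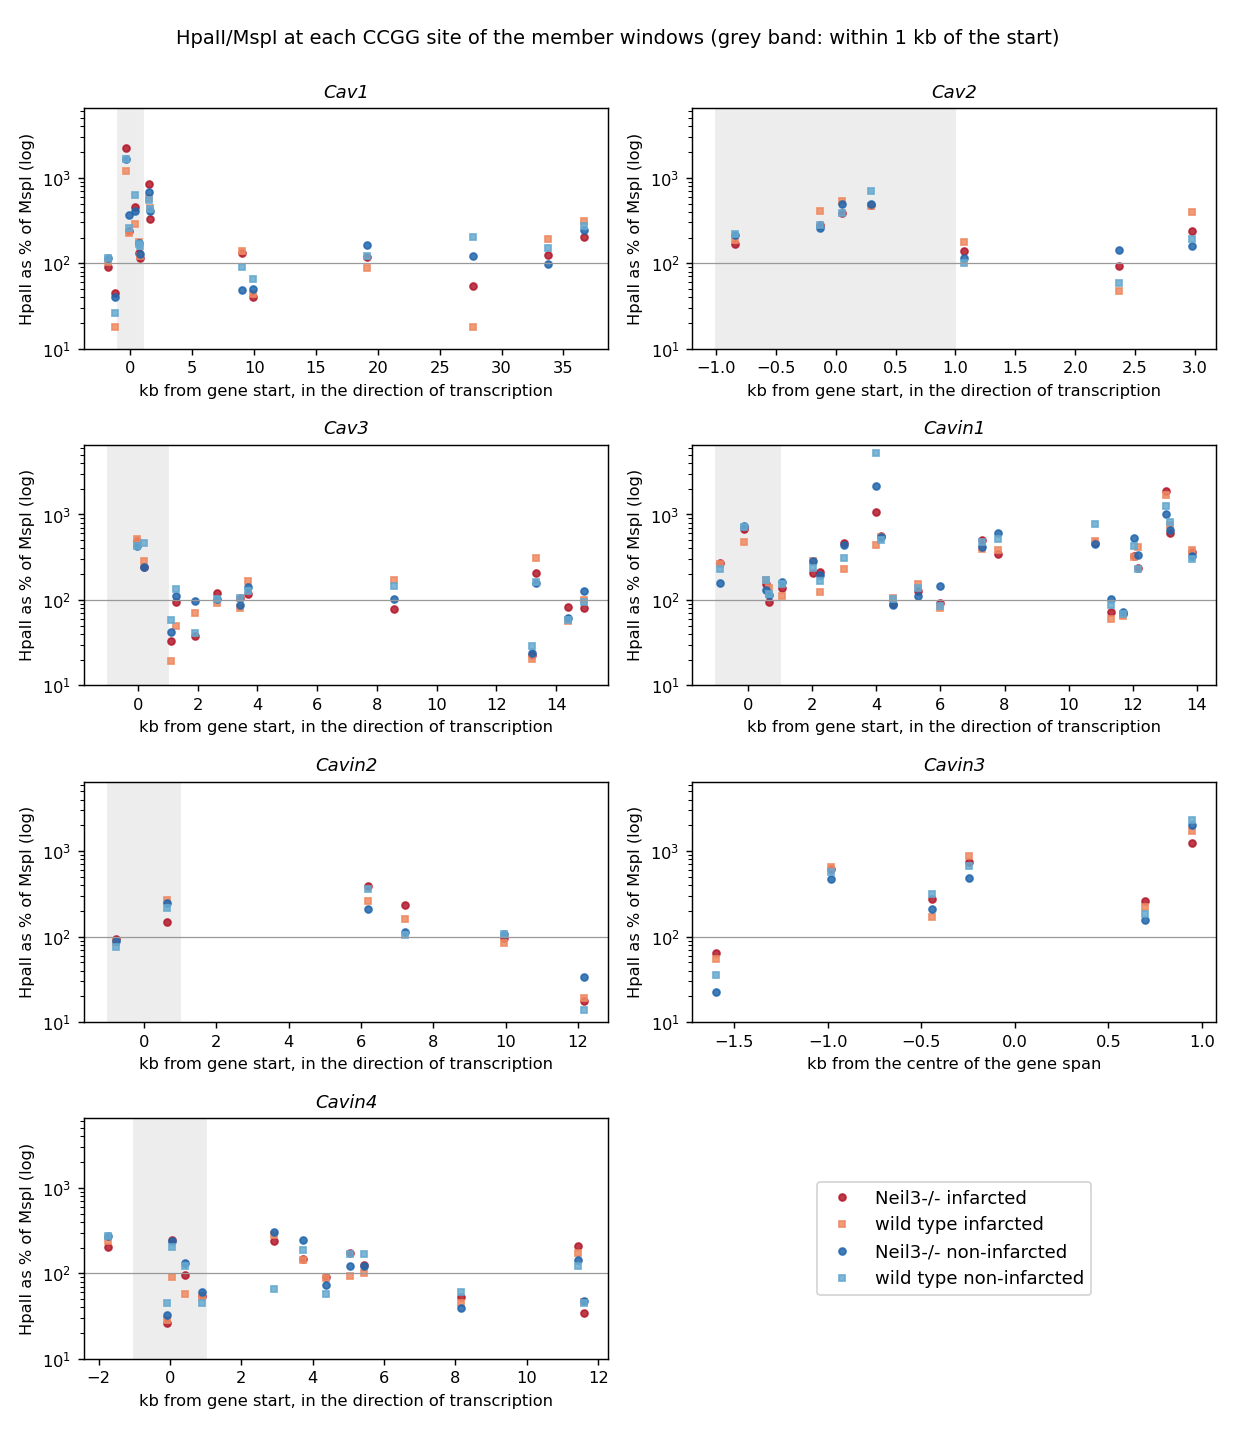
HpaII/MspI in percent on a log axis at each CCGG site of the 7 windows, against the distance from the gene start in the direction of transcription, or from the centre of the span for Cavin3, whose start was not taken. The 4 colours are the samples, the grey band marks 1 kb around the start, and the horizontal line is at 100%; sites near the start of Cav3 lie above the line while the site just before the start of Cavin4 lies below it.

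The first comparison set infarcted against non-infarcted ventricle within each genotype, which asks how modification of these genes differs in the injured wall. A difference of at least 20 percentage points was counted. In Neil3-/- hearts 1 of 7 genes was higher (Cavin3) and 0 were lower in HpaII/MspI, against 6.82% of all genes higher, 2.82% lower and 9.64% in either direction. In wild-type hearts 1 was higher (Cav2) and 2 were lower (Cav1 and Cavin4), against 12.1%, 3.28% and 15.4%. Genes with a high index pass such a threshold more often: of the 4309 genes with a mean HpaII/MspI of at least 150%, 19.1% were higher and 7.64% lower in Neil3-/- hearts (26.7% in either direction), and 27.7% and 9.24% in wild-type hearts (36.9%). No gene of the family passed 20 points in both genotypes. The median difference of the 7 genes was -5.03 points in Neil3-/- and -12.6 points in wild-type hearts, against 2.09 and 4.84 over all genes. Cav1, Cavin1 and Cavin4, or 3 of 7, were below 0 in both genotypes, against 15.3% of all genes. Cavin1 was at 50.2 points in wild-type hearts with the median over sites, and in the gene body Cav1 was at 1.92 and Cavin4 at 3.78 points in Neil3-/- hearts. Of the 7 genes, 4 had opposite signs, against 39%.

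Among the caveolins, Cav1 was lower in infarcted tissue by 14.8 points in Neil3-/- hearts (182% against 197%) and by 30.9 points in wild-type hearts (168% against 199%). Both infarcted samples lay below both non-infarcted samples, which was so for 1 of 7 genes here and for 9.36% of all genes. At single sites the direction was mixed: 9 of its 15 sites were lower in Neil3-/- and 9 of 15 in wild-type infarcted tissue, and the median over sites was higher by 12.7 points in wild-type infarcted tissue. Cav2 differed by -15.0 points in Neil3-/- hearts and by 47.9 points in wild-type hearts, so the groups overlapped. With the signal of each site clipped at its MspI signal, the wild-type difference of Cav2 was -1.60 points. Cav3 differed by 2.28 and -13.6 points, also with overlap.

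Among the cavins, Cavin1 differed by -18.8 points in Neil3-/- and -9.05 points in wild-type hearts, with overlap between the groups because wild-type non-infarcted tissue (196%) lay below Neil3-/- infarcted tissue (197%). Of its 23 sites, 12 were lower in Neil3-/- and 13 in wild-type infarcted tissue. In the body of Cavin1, from 1 kb inside either end, 16 sites had 176% in Neil3-/- infarcted and 158% in wild-type infarcted tissue, against 207% in Neil3-/- non-infarcted and 177% in wild-type non-infarcted tissue. The body values are those known beforehand and are repeated to place the window beside them. Cavin2 differed by -5.03 and 10.97 points.

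Cavin3 was higher by 106 points in Neil3-/- infarcted than in Neil3-/- non-infarcted tissue, above 20 points but from a window of 6 sites. Of these, 3 lay inside the gene span. The Cavin3 difference stayed past 20 points in 7 of 8 alternative settings, with 58.3 points at 5 kb on either side. With clipping it was 7.73 points. The sum of its HpaII signal was 568 in Neil3-/- infarcted and 469 in Neil3-/- non-infarcted tissue, and the sum of its MspI signal was 158 and 186. HpaII/MspI was higher at 5 of the 6 sites. It was lower at the site with the highest HpaII signal, chr7:105482354, with 1260.4% against 2005%. In wild-type hearts 4 of the 6 sites were higher, yet the window differed by -12.6 points. At a minimum mean MspI signal of 10, 4 sites of Cavin3 were left, under the 5 required of a gene. Cavin4 differed by -1.72 points in Neil3-/- and by -23.9 points in wild-type hearts, where 8 of 13 sites were lower. The wild-type infarcted sample was the lowest of the 4 for Cavin4.

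**Figure D3:**
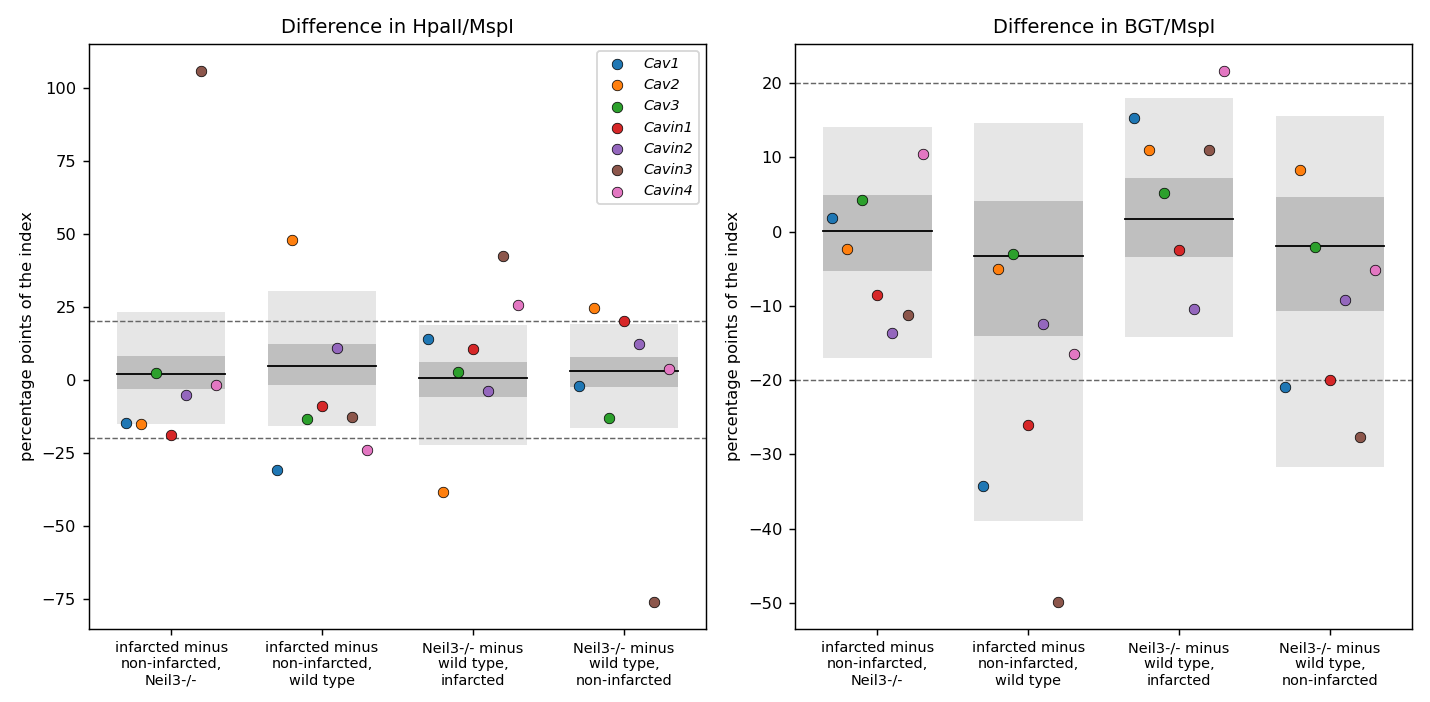
Differences in HpaII/MspI (left) and BGT/MspI (right) in percentage points for the 7 genes in 4 comparisons, each the first-named sample minus the second. Pale bars span the 5th to the 95th percentile of all measured genes, dark bars the 25th to the 75th, the black line is their median, and dashed lines mark 20 points; Cavin3 in Neil3-/- hearts, at 106 points, lies above all other points of the left panel.

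Single sites gave directions that were about even. Of the 83 sites, 40 were higher and 43 lower in HpaII/MspI in Neil3-/- infarcted than in Neil3-/- non-infarcted tissue, and 39 were higher and 44 lower in wild-type infarcted than in wild-type non-infarcted tissue. Among the 77 sites with a mean MspI signal of at least 10, 25 (32.5%) were lower in infarcted tissue of both genotypes and 21 (27.3%) were higher in both, against 26.5% and 26.6% of all autosomal sites above that signal. Past 1.5-fold in both genotypes, 1 site was lower and 4 were higher, against 3.47% and 4.17% of all sites. These shares were near the background.

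The site that was lower past 1.5-fold lay 27699 bases after the start of Cav1, at chr6:17334034. It had 54.6% in Neil3-/- infarcted and 17.9% in wild-type infarcted tissue, against 121% in Neil3-/- non-infarcted and 201% in wild-type non-infarcted tissue. The 17.9% rests on an HpaII signal of 3.58, near the lowest listed value of that library, 3.16. The 201% rests on an MspI signal of 12.7. A further site of Cav1, at chr6:17315330, went the other way, with 130.2% and 141% in infarcted and 49.1% and 90.4% in non-infarcted tissue, Neil3-/- before wild type. The other higher sites were chr6:17284162 in Cav2, with 241% and 395% against 158% and 192%, chr1:51296336 in Cavin2, with 232% and 160.4% against 114% and 105%, and chr7:105479810 beside Cavin3, with 64.7% and 55.5% against 22.5% and 35.3%. All but the Cavin2 site had a mean MspI signal between 14.7 and 30.7, and that of the Cavin2 site was 36.1.

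In Cavin1 none of the 21 sites with a mean MspI signal of at least 10 passed 1.5-fold in both genotypes. Below that signal, chr11:100966625, with a mean MspI signal of 4.24, had log2 differences of -1.02 in Neil3-/- and -3.55 in wild-type hearts. Among the 21 sites, the largest shifts of the same direction outside the start were at chr11:100959307, with 71.3% in Neil3-/- infarcted and 59.6% in wild-type infarcted tissue, against 103% in Neil3-/- non-infarcted and 86.7% in wild-type non-infarcted tissue. At chr11:100958591 the values were 324% and 315% against 531% and 426%, and at chr11:100962826 they were 341% and 381% against 614% and 512%. In Cav3 the sites at chr6:112460630 and chr6:112460795, just past 1 kb from the start, had log2 differences of -0.36 and -0.26 in Neil3-/- and -1.60 and -1.44 in wild-type hearts. At the far end of Cav3, chr6:112472831 had 206% and 308% in infarcted against 157% and 162% in non-infarcted tissue, Neil3-/- before wild type.

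The sites of Cavin4 with the largest shared shift also differed in direction. At chr4:48667236 the values were 148% in Neil3-/- infarcted and 145% in wild-type infarcted tissue, against 245% in Neil3-/- non-infarcted and 187% in wild-type non-infarcted tissue. At chr4:48674944, past the end of the gene, they were 208% and 171% against 143% and 122%, and at chr4:48667896 they were 89.97% and 88.4% against 72.1% and 57.5%. Of the remaining sites that the rule named, chr6:17325421 in Cav1, chr6:17283553 in Cav2 and chr1:51299086 in Cavin2 were lower in both genotypes, and chr6:17282256 in Cav2 and chr7:105482102 and chr7:105480423 at Cavin3 were higher. Their log2 differences nearer 0 lay between 0.14 and 0.47 in size.

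**Figure D4:**
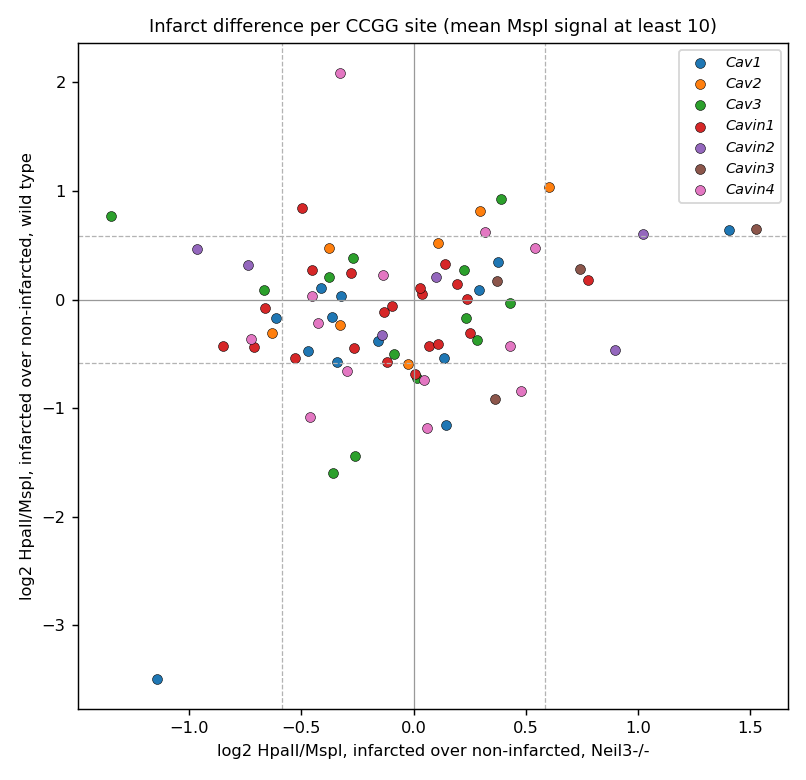
Log2 of HpaII/MspI in infarcted over non-infarcted tissue at 77 sites of the 7 windows, in Neil3-/- hearts (x axis) and wild-type hearts (y axis), with dashed lines at 1.5-fold. Points fall in all 4 quadrants, with 25 sites below 0 on both axes and 21 above 0 on both.

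The infarcted samples also differed in marker genes of cell types, measured over the same kind of window. DNA of bulk tissue cannot tell a change of cell composition from a change within a cell type. Over 10 cardiomyocyte genes the summed HpaII/MspI was 103% in Neil3-/- infarcted and 94.9% in wild-type infarcted tissue, against 109.97% in Neil3-/- non-infarcted and 106% in wild-type non-infarcted tissue, and 9 of 10 were lower in Neil3-/- and 8 of 10 in wild-type infarcted tissue. Over the 7 leukocyte genes measured of 10 it was 132% and 136% in infarcted against 119% and 114% in non-infarcted tissue, Neil3-/- before wild type, and 1 of 7 was lower in each genotype. Lyz2, S100a8 and S100a9 had fewer than 5 sites. Endothelial genes had 118% and 116% against 119% and 115%, with 7 of 10 lower in each genotype. Fibroblast genes had 141% and 149% against 133% and 130.2%, with 1 of 6 lower in each, and smooth muscle and pericyte genes 126% and 126% against 123% and 121%, with 2 of 6 lower in each. Over all genes, the 25th percentile of the infarct difference was -3.13 points in Neil3-/- and -1.77 points in wild-type hearts. The median was 2.09 and 4.84 points, so fewer genes were lower than higher. Ryr2 had the most sites of the cardiomyocyte list (201), and Erg (161) and Vwf (106) of the endothelial list, so these weigh heavily in the sums. No listed signal in the files was 0. The part of these shifts in the differences of the caveolin and cavin genes was not tested.

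BGT/MspI set Cavin2 apart from the rest of the family in level. It had 60.6% in Neil3-/- infarcted, 71.0% in wild-type infarcted, 74.3% in Neil3-/- non-infarcted and 83.5% in wild-type non-infarcted tissue, at the 0.415th to the 16.9th percentile of all genes. BGT/MspI of Cavin2 thus lay 39.4, 29.0, 25.7 and 16.5 points below 100%, distances on a relative scale and not shares of signal lost. Of its 6 sites, 4 were below 100% in all samples, whereas over all autosomal sites the share was 30.3%. The sites of Cavin2 beyond 1 kb from the start had 44.0%, 55.9%, 48.1% and 48.8%. In Cav2 the corresponding 3 sites had 51.9%, 47.0%, 51.5% and 45.3%, although its whole window lay at 106% to 119.9% because its near-start sites had 147% to 171%.

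The other windows lay near or above 100% in BGT/MspI. Cav3 had 103%, 98.2%, 99.1% and 101% in Neil3-/- infarcted, wild-type infarcted, Neil3-/- non-infarcted and wild-type non-infarcted tissue. In the same order Cav1 had 117%, 102%, 116% and 136%, Cavin1 111%, 113%, 119% and 139%, Cavin3 137%, 126%, 149% and 176%, and Cavin4 129.9%, 108%, 119% and 125%. Wild-type non-infarcted tissue, whose BGT library differed from the others, was the highest sample for Cav1, Cavin1, Cavin2 and Cavin3.

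In the infarct comparison of BGT/MspI, 0 of 7 genes passed 20 points in Neil3-/- hearts, against 1.68% of all genes higher, 3.53% lower and 5.21% in either direction. In wild-type hearts 0 were higher and 3 lower (Cav1 at -34.3, Cavin1 at -26.1 and Cavin3 at -49.9 points), against 2.12%, 16.9% and 19%. With clipping these were 10.6 points for Cav1 and 1.74 points for Cavin3, and in the body of Cav1 the difference was 8.33 points. Cav1, Cavin1 and Cavin3 are among the genes with a mean HpaII/MspI of at least 150%. Over such genes the median size of this wild-type difference, regardless of sign, was 20.3 points, against 8.32 points over all genes. All 7 were below 0 in wild-type hearts. Most of all genes were below 0 there too, with a median of -3.34 points and a 75th percentile of 4.07 points. This wild-type comparison uses the BGT library of non-infarcted tissue that differed from the others. In both genotypes, 4 of 7 were below 0 (31.9% of all genes), and 3 of 7 had opposite signs (46.7%). Both infarcted samples lay below both non-infarcted samples for Cavin1, Cavin2 and Cavin3, or 3 of 7 genes, against 23.5% of all genes. Of the 2 genotypes' differences, the one nearer 0 was -8.54 points for Cavin1, -12.4 points for Cavin2 and -11.2 points for Cavin3. For each of these genes the direction turned under some alternatives. With the median over sites, Cavin2 was at 0.864 points in Neil3-/- and 8.14 points in wild-type hearts, and Cavin1 at 4.36 points in Neil3-/- hearts. With 5 kb on either side, Cavin3 was at 1.29 points in Neil3-/- hearts.

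The second comparison set Neil3-/- against wild-type tissue, separately for infarcted and non-infarcted ventricle. Each of these shares its samples with the infarct comparisons, so the values are given side by side. In infarcted tissue 2 of 7 genes were higher in HpaII/MspI (Cavin3 by 42.4 and Cavin4 by 25.8 points) and 1 lower (Cav2, at -38.3 points), against 4.42% of all genes higher, 6.15% lower and 10.6% in either direction. In non-infarcted tissue 2 were higher (Cav2 by 24.6 and Cavin1 by 20.2 points) and 1 lower (Cavin3, at -76.1 points), against 4.55%, 3.71% and 8.26%. Of the 4309 genes with a mean index of at least 150%, 10.6% were higher and 17.3% lower in infarcted (27.9% in either direction), and 11% higher and 11.6% lower in non-infarcted tissue (22.6%). Cav2 and Cavin3 thus passed 20 points with opposite signs in infarcted and non-infarcted tissue. Below 20 points the signs were also opposite for Cav1 (14.0 and -2.00), Cav3 (2.75 and -13.1) and Cavin2 (-3.66 and 12.3), infarcted before non-infarcted. Cavin1 and Cavin4 were higher in both tissues, but with the median over sites Cavin1 was at -15.8 points in infarcted tissue. The share of all genes with opposite signs is not given here, and the difference between the tissues was not tested. For Cav2 the value was 7.54 points in infarcted tissue with clipping and -6.92 points in non-infarcted tissue with the median over sites.

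Both Neil3-/- samples lay above both wild-type samples for Cavin1 (197% and 216% against 187% and 196%) and for Cavin4 (106% and 108% against 80.5% and 104%), or 2 of 7 genes, against 21.6% of all genes. None lay wholly below, against 9% of all genes. Cavin3 was lower at 6 of 6 sites in Neil3-/- non-infarcted than in wild-type non-infarcted tissue, while in infarcted tissue 3 sites were higher and 3 lower. Over the 83 sites of the family, 40 were higher and 43 lower in non-infarcted tissue. The Cavin3 sites chr7:105481162 and chr7:105482354 had a low mean MspI signal, of 9.95 and 8.19. In BGT/MspI, 1 gene was higher in Neil3-/- infarcted tissue (Cavin4 by 21.7 points) and 0 were lower, against 3.54%, 2.38% and, in either direction, 5.92% of all genes. In Neil3-/- non-infarcted tissue 0 were higher and 3 lower (Cav1 at -20.9, Cavin1 at -20.03 and Cavin3 at -27.6 points), against 2.42%, 11.9% and 14.3%, in a comparison that uses the BGT library that differed from the others. There Cav1 was at 1.38 points with clipping and 8.20 points in its body, and Cavin3 at 11.2 points with the median over sites. Cav1, Cavin1 and Cavin3 are among the genes with a mean HpaII/MspI of at least 150%. Over such genes the median size of this difference in BGT/MspI, regardless of sign, was 15.3 points, against 7.31 points over all genes. Cav2 was the gene for which both Neil3-/- samples lay above both wild-type samples in BGT/MspI (117% and 119.9% against 106% and 112%), against 16.5% of all genes.

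Of 16 other genes of caveolae and their surroundings, such as the EHD ATPases of the caveola neck, the pacsins, the flotillins and endothelial nitric oxide synthase, all 16 were measured. In HpaII/MspI, 0 were higher and 0 lower in Neil3-/- infarcted tissue, against 6.82% and 2.82% of all genes, and 1 was higher (Ehd3, by 27.4 points) and 0 lower in wild-type infarcted tissue, against 12.1% and 3.28%. In Neil3-/- hearts the most positive differences were at Bin1, a membrane-bending protein of muscle T-tubules, at 11.8 points, and Pacsin2, at 6.93 points. The most negative were at Ehd4, at -16.6 points, and the channel gene Trpc1, at -13.7 points. In wild-type hearts Flot1 followed Ehd3 at 16.8 points, and the fatty acid transporter gene Cd36, at -18.7 points, and Flot2, at -14.6 points, were most negative. Nos3, the gene of endothelial nitric oxide synthase, differed by -4.94 points in Neil3-/- and -10.6 points in wild-type hearts. The median of the list was 0.0757 points in Neil3-/- and 4.84 points in wild-type hearts, against 2.09 and 4.84 over all genes.

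Some windows also take in other genes. The window of Cav3 reaches into Oxtr, the oxytocin receptor gene, where 2 of its 13 sites lie, and that of Cavin4 reaches into Tmeff1, with 1 of 13 sites. Likeness was measured as the distance over 8 values, the log2 of both percentages in the 4 samples, among all measured genes. Nearest to Cavin1 was Adamtsl4 (distance 0.0951), to Cav1 Txndc9 (0.102), to Cav3 Klf11 (0.138), to Cavin2 Ptgr1 (0.211), to Cavin4 the heart myosin gene Myh6 (0.243), to Cav2 Fnbp1l (0.243) and to Cavin3 Rps13 (0.270). Myh6 had an HpaII/MspI of 99.7% in Neil3-/- infarcted, 90.7% in wild-type infarcted, 111% in Neil3-/- non-infarcted and 105% in wild-type non-infarcted tissue over 35 sites.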

How the data were processed

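DNA modification was measured by HMST-seq in 4 samples, 1 per group, each with 3 libraries. For each library and CCGG site the authors deposited a signal that they had normalized; the sources used here do not give the method, the aligner, the filters or the depth in tags. The genome build, per the submitters' processing notes, was mm10. All 9583 listed sites inside RefSeq promoter sequences stood at CCGG once 1 was added to the deposited position, so positions are printed with 1 added, as the first base of the motif on the plus strand. Gene spans came from a RefSeq table of GRCm38.p6, and starts from its promoter table.

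Percentages were ratios of signal sums over sites listed in all 4 samples. A gene needed at least 5 such sites. The alternatives changed the window, the minimum signal, the scaling, the summary over sites and the threshold. The members, lists and thresholds were chosen with earlier results of these data known. Beyond 1 kb from a start, the sites named were up to 3 per gene with the largest HpaII/MspI shift of the same direction in both genotypes, at a mean MspI signal of at least 10. Partner genes named were the 2 most positive and the 2 most negative per infarct comparison; Nos3 was added after its value was seen. No p-value was computed, because each group has 1 sample. The index computation was tested on simulated data. Python 3.11.15, numpy 2.4.6 and pandas 2.3.3 were used.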

Additional observations from a re-analysis of the deposited data

Results flagged for a closer look

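For 4 of 7 genes the infarct difference in HpaII/MspI had opposite signs in the 2 genotypes, against 39% of all genes, and for 3 of 7 it did so in BGT/MspI, against 46.7%. With 1 sample per group, the difference between the genotypes was not tested in any of these cases. In HpaII/MspI, the infarct difference in Neil3-/- minus that in wild-type hearts was 119 points for Cavin3 (106 and -12.6), -62.9 points for Cav2 (-15.0 and 47.9), -16.0 points for Cavin2 (-5.03 and 10.97) and 15.8 points for Cav3 (2.28 and -13.6). In BGT/MspI it was 36.2 points for Cav1 (1.88 and -34.3), 26.9 points for Cavin4 (10.4 and -16.5) and 7.31 points for Cav3 (4.31 and -2.997). The wild-type values in BGT/MspI use the library of wild-type non-infarcted tissue that differed from the others.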

How the results depend on the processing

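Of 56 differences (7 genes, 4 comparisons, 2 percentages), 17 passed 20 points. Over 181 values of these under the alternatives, 171 kept their direction and 128 stayed past 20 points, and 0 of the 17 stayed past it under every alternative. No paired analysis was possible because each group has 1 sample and the labels give no replicate numbers. Depth in tags is unknown, and windows of 6 or 7 sites (Cavin2, Cavin3 and Cav2) limit what their values show. Rescaling on sites with at least 10 others within 500 bp was not made, since only 3 sites have them; sites with at least 5 others (3047) were used in its place. This, the gene body and the combined filter below were chosen after seeing the data.

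Directions turned when signal was clipped per site at MspI: Cav2 at -1.60 (infarct, wild type) and 7.54 (Neil3 loss, infarcted) in HpaII/MspI, and in BGT/MspI Cav1 at 10.6 and Cavin3 at 1.74 (infarct, wild type) and Cav1 at 1.38 (Neil3 loss, non-infarcted). With the median over sites, Cav1 was at 12.7 (infarct, wild type) and Cav2 at -6.92 (Neil3 loss, non-infarcted) in HpaII/MspI, and Cavin3 at 11.2 (Neil3 loss, non-infarcted) in BGT/MspI. In the gene body, Cav1 was at 8.33 (infarct, wild type) and 8.20 (Neil3 loss, non-infarcted) in BGT/MspI. Of the differences under 20 points, 5 turned and passed it with the median over sites: in HpaII/MspI Cavin1 at 50.2 (infarct, wild type), Cav2 at 27.8 (infarct, Neil3-/-) and Cav1 at -48.8 (Neil3 loss, infarcted), and in BGT/MspI Cav2 at 20.6 (infarct, Neil3-/-) and -51.4 (Neil3 loss, non-infarcted). The causes were not tested.

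The number of genes past 20 points moved as follows. The gene body was measured for 4 of the 7 genes (Cav1, Cav3, Cavin1 and Cavin4), and the span alone and the minimum signal left 6, so lower counts there include genes not measured; for Neil3 loss in infarcted tissue, Cavin4 was the one called gene with a body value in HpaII/MspI, at 35.7 points. In HpaII/MspI the infarct count in Neil3-/- hearts was 1 and became 0 with a mean MspI of at least 10 (Cavin3 then had fewer than 5 sites) and 0 with clipping, 2 at equal totals, 2 when set against the median gene, 3 with the minimum signal and without the site of highest MspI, and 4 without that site alone or with the median over sites. In wild-type hearts it was 3 and became 0 with clipping, and 1 counted by fold change or after rescaling on clusters. For Neil3 loss in infarcted tissue it was 3 and became 0 with clipping, and 1 counted by fold change, in the gene body or after rescaling on clusters. For Neil3 loss in non-infarcted tissue it was 3 and became 0 with clipping, and 1 counted by fold change, in the gene body, with 5 kb flanks, after rescaling on clusters or at equal totals.

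In BGT/MspI the infarct count in Neil3-/- hearts was 0 and became 1 in the gene body, with the median over sites or without the site of highest MspI. In wild-type hearts it was 3 and became 0 with clipping, 1 in the gene body and 5 with the median over sites. For Neil3 loss in infarcted tissue it was 1 and became 0 counted by fold change, with 5 kb flanks, after rescaling on clusters, relative to the median gene or with clipping, and 2 with the median over sites or without the site of highest MspI, with or without the minimum signal. For Neil3 loss in non-infarcted tissue it was 3 and became 0 counted by fold change, in the span alone, with the minimum signal or with clipping, and 1 in the gene body, after rescaling on clusters, relative to the median gene or with the minimum signal and without the site of highest MspI.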

Other observations

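Among the 6 sites left out because a sample lacks them, the site at chr4:48670566 in Cavin4 was listed in 3 samples, with an MspI signal of 24.995 in wild-type infarcted, 31.7 in Neil3-/- non-infarcted and 24.3 in wild-type non-infarcted tissue, and was missing in Neil3-/- infarcted tissue. The site at chr6:17279344 beside Cav2 was missing in wild-type infarcted tissue and had MspI signals of 32.7 in Neil3-/- infarcted, 26.3 in Neil3-/- non-infarcted and 27.9 in wild-type non-infarcted tissue. The site at chr11:100970423, inside Cavin1 near its start, was listed in 2 samples with an HpaII signal of 24.1 in Neil3-/- infarcted and 109 in wild-type non-infarcted tissue. The highest single HpaII/MspI of the family, 5231% at chr11:100966625 in Cavin1 in wild-type non-infarcted tissue, stood on an MspI signal of 1.55.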
